A study of Mus musculus with 6 samples.

Results

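Salt-inducible kinases, their CRTC substrates and the CREB factors that CRTCs bind were described here in whole ovaries of SeBP1 knockout and wild-type mice. The family holds 9 genes, Sik1, Sik2, Sik3, Crtc1, Crtc2, Crtc3, Creb1, Crem and Atf1, of the 31693 gene names on the array. Members were taken by name, and no older synonym was needed to find them. The family was chosen by the knockout minus wild-type difference of Sik1 in these same arrays, so the values of Sik1 are a description and were given no test. The other 8 members were asked whether they differed too.

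The 2 groups were SeBP1 knockout (3 arrays) and wild type (3 arrays). Both were ovaries of 20-week-old female mice on the C57BL/6J background, and no treatment is named for either. SeBP1 is selenium-binding protein 1, encoded by Selenbp1. How the allele was made, and which part of Selenbp1 it lacks, is stated nowhere in the labels. Whether the arrays stand for separate animals is not stated, and p-values measure only the spread between these samples, which may be technical. Each sample was read on a single-colour Agilent array, where a spot's brightness stands for the RNA that binds its 60-base probe. Values below are log2 of the processed intensity minus the log2 75th percentile of that array, so 0 marks the 75th percentile, and a difference of 1 is a doubling. Levels of different probes are not comparable, because each probe binds with its own strength.

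Cyclic AMP is the second messenger through which follicle-stimulating hormone and luteinising hormone act on granulosa, theca and luteal cells. It releases the catalytic subunits of protein kinase A, which phosphorylate CREB1 and its relatives ATF1 and CREM. Salt-inducible kinases are activated by LKB1 and phosphorylate the CRTC coactivators, which are then held in the cytoplasm by 14-3-3 proteins. Protein kinase A phosphorylates the salt-inducible kinases and restrains them, and calcineurin dephosphorylates CRTCs, so that CRTCs enter the nucleus and bind CREB. Sik1 is itself known as a gene induced by cAMP.

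The sequences that identify these measurements are the Sik1 probe and promoters of the family. The Sik1 value on every array rests on a single spot, whose probe lies on the minus strand at chr17:31981255-31981314 (mm9, per the file headers). Its exon was not worked out here. The first 30 bases of the probe, 5′ to 3′, at chr17:31981285-31981314, are shown because the probe is what names the gene.
Sik1 probe: ggaatcgtttcatttctcatgttaatgtga

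Promoters came from RefSeq on build GRCm38.p6, each with 250 bases before the transcription start and 50 after it. They were read for 6 members, Sik2, Sik3, Crtc1, Crtc3, Creb1 and Atf1. Sik1 and Crtc2 were not matched, and that of Crem was not used here. The motif searched was the cAMP response element TGACGTCA, which reads the same on both strands, and its 5-letter part TGACG on either strand, which also lies within the full element. The full element was in 0 of the 6 member promoters and in 588 of 32851 promoters of the table (1.79%). The part was in 3 of the 6, those of Sik2, Sik3 and Atf1, and in 20.8% of all promoters. Promoters of the 2 other salt-inducible kinases and of Nr4a1, the listed CREB target with the largest difference below, are printed with TGACG or its reverse complement in capitals. The Sik2 promoter is at chr9:51009024-51009323 on the minus strand, that of Sik3 at chr9:46012570-46012869 on the plus strand, and that of Nr4a1 at chr15:101266596-101266895 on the plus strand (GRCm38.p6).
Sik2: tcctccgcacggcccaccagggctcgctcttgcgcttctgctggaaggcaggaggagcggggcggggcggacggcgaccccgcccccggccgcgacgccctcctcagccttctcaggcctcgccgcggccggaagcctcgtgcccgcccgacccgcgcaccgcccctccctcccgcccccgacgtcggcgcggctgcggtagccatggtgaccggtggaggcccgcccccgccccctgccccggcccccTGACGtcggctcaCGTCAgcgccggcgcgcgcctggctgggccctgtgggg
Sik3: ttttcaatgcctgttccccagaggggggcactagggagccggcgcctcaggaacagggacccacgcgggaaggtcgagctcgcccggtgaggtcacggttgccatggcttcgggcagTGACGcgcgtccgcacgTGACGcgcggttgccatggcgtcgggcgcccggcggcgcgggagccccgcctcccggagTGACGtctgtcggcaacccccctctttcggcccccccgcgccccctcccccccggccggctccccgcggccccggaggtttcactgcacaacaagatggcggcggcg
Nr4a1: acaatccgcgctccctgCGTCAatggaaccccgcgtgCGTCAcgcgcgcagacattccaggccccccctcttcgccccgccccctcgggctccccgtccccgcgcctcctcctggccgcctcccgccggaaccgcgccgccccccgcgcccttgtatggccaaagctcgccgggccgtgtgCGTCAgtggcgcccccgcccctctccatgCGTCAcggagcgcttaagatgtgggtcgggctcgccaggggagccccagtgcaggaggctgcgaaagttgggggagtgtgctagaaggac

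In Sik3 the letters began 133, 116 and 57 bases upstream of the start, all on the strand shown. In Sik2 a copy began 1 base upstream, and a reverse-complement copy began at base 13 of the transcript. The Atf1 promoter held 1 copy, 90 bases upstream. Nr4a1 held 4 copies, all reversed, beginning 233, 213, 69 and 40 bases upstream. Of the pathway genes listed below, 124 had a promoter in the table, and 8 of these (6.45%) held the full element, among them Gpr6, Btg2 and Dusp1. This share is per gene, where any matching promoter of a gene counts, and the 1.79% is per promoter, so they are unlike measures. The lists also include genes picked as known CREB targets. A match describes these letters only.

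On the arrays, between 63.9% and 69.3% of spots in knockouts and between 61.6% and 67.8% in wild types were well above background, and 0 spots were saturated. The arrays lay on 2 slides. The 3 knockouts and wild type replicate 3 shared one slide, and wild type replicates 1 and 2 lay on the other. Selenbp1, the targeted gene, was at -0.11, 0.02 and -0.37 in knockouts, against 2.68, 2.52 and 2.59 in wild types. The test took probes that the scanner software marked as well above background throughout either genotype, which left 24416 probes for 19413 genes. Among them limma called 1 at an adjusted p under 0.05, Selenbp1, which is 0.00410% of the probes tested. At an unadjusted p under 0.05 there were 964. The family had 18 probes, and 17 passed the background filter, each of them well above background on all 6 arrays, so none entered through 1 genotype alone. The probe left out was 1 of the 3 for Crem, which was well above background on no array.

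Sik1 encodes a kinase that phosphorylates CRTCs and class IIa histone deacetylases. Its log2 level was -1.21, -1.65 and -1.25 in knockouts, against -2.74, -2.81 and -2.70 in wild types. Every knockout lay above every wild type, and the wild types were close together while knockout replicate 2 was the lowest of the knockouts. The mean was -1.37 ± 0.24 in knockouts and -2.75 ± 0.06 in wild types (SD, n = 3 each), a difference of 1.38 or 2.60-fold. The processed intensity of the spot was 707.8, 476.3 and 698.6 units in knockouts, against 264.1, 226.2 and 202.0 in wild types. Over all probes tested, 113 differed by at least as much as Sik1 in size, 43 of them higher in knockouts. Within the slide that carried knockouts and a wild type, the Sik1 difference was 1.33, against wild type replicate 3 alone. It was 1.08 with another background correction, normexp with an offset of 50.

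**Figure D1:**
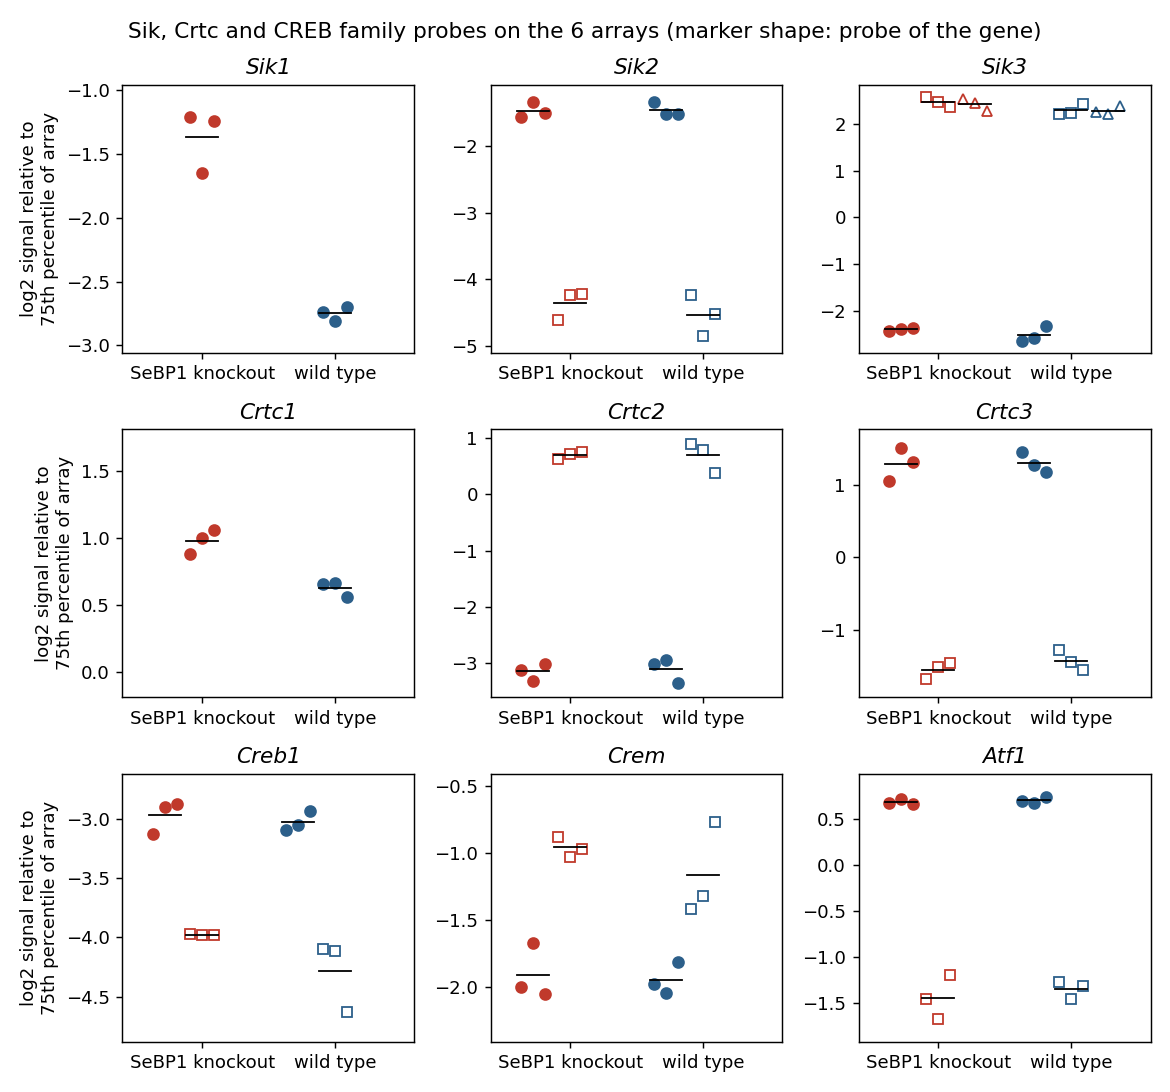
Log2 signal of each kept probe of the 9 genes (1 panel per gene, with its own vertical scale), with the 3 knockout arrays left of the 3 wild-type arrays. Marker shapes stand for the probes of a gene, and the short lines are group means. The Sik1 knockouts, at -1.65 to -1.21, sit above the wild types, at -2.81 to -2.70, while most other probes overlap between the groups.

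The 2 other salt-inducible kinases showed small differences whose intervals include 0. Sik2, the relative best known from fat and liver cells, was read by 2 probes. Sik2 probe 1, at chr9:50700917-50700976 on the minus strand (mm9), was at -1.56, -1.34 and -1.50 in knockouts, against -1.33, -1.51 and -1.52 in wild types. The groups overlapped, and the difference was -0.01 with a 95% interval of -0.29 to 0.27. Probe 2, whose coordinates in the files span chr9:50743671-50803760, was at -4.61, -4.25 and -4.23 in knockouts, against -4.24, -4.86 and -4.53 in wild types. Its difference was 0.18 (95% interval -0.29 to 0.65), again with overlapping groups.

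Sik3, which like the others is activated by LKB1, was read by 3 probes on the plus strand of chromosome 9. Probe 2, at chr9:46032210-46032269, was at 2.59, 2.48 and 2.37 in knockouts, against 2.22, 2.23 and 2.44 in wild types. Only wild type replicate 3 reached into the range of the knockouts there. The difference was 0.18 (95% interval -0.10 to 0.47). Probe 3, which shares 55 of its bases, at chr9:46032215-46032274, gave 0.14 (-0.13 to 0.42), and the 2 are not separate readings of the gene. Probe 1, at chr9:46029257-46029316, gave 0.13 (-0.16 to 0.41). All 3 means were higher in knockouts, and none of the 3 was called (limma, adjusted p = 1.00 each).

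The upper limits of these intervals, 0.27 to 0.65, lie below the Sik1 difference of 1.38. That difference was the value by which the family was chosen, so the gap between Sik1 and its relatives was not tested. On the log2 scale the SD over all 6 arrays was 0.77 for Sik1 and 0.029 to 0.26 for the 16 kept probes of the other members. The Sik1 SD contains the same genotype difference and is no separate contrast. Within groups it was 0.24 in knockouts and 0.06 in wild types.

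Among the CRTC coactivators, Crtc1 had the largest difference. Crtc1, best known from neurons, was read by a probe at chr8:72906260-72906319 on the minus strand. It was at 0.88, 1.00 and 1.06 in knockouts, against 0.65, 0.66 and 0.56 in wild types. All 3 knockouts lay above all 3 wild types. The mean was 0.98 ± 0.09 in knockouts and 0.63 ± 0.06 in wild types (SD, n = 3 each), a log2 difference of 0.36 (SE 0.10, 95% interval 0.11 to 0.60) or 1.28-fold. Its unadjusted p was 0.0122 and its limma adjusted p over all probes was 1.00, so it was not called. Of all probes tested, 88.8% had a smaller difference in size. In the alternative analyses the Crtc1 difference ran from 0.31 to 0.42.

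Crtc2, the coactivator best known from glucose production in liver, lies on chromosome 3, where its nearer probe is 4.68 Mb from that of Selenbp1. Crtc2 probe 2, at chr3:90067950-90068009, was at 0.64, 0.72 and 0.75 in knockouts, against 0.91, 0.78 and 0.39 in wild types. The wild types spread on both sides of the knockouts, and the difference was 0.01 (95% interval -0.37 to 0.38). Within the slide shared by both genotypes it was 0.31, against wild type replicate 3 alone, and without that replicate it was -0.14. Probe 1, at chr3:90066577-90066636, differed by -0.04 (-0.40 to 0.33). For Crtc3, best known from fat tissue, probe 1 at chr7:87731571-87731630 differed by -0.01 (-0.38 to 0.36). Crtc3 probe 2, at chr7:87733212-87733271, differed by -0.12 (-0.42 to 0.18). In all 4 of these probes the groups overlapped.

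The CREB factors bind the cAMP response element as dimers. Creb1, the factor that gives the family its name, was read by probe 1 at chr1:64644633-64644692, which differed by 0.06 (95% interval -0.23 to 0.34). Creb1 probe 2, at chr1:64651061-64651120, was at -3.97, -3.98 and -3.98 in knockouts, against -4.10, -4.12 and -4.63 in wild types. The knockouts were nearly identical and lay above all wild types, and wild type replicate 3 was apart from the other two. The difference was 0.31 (SE 0.17, 95% interval -0.09 to 0.70, limma adjusted p = 1.00). It was 0.13 without wild type replicate 3, 0.65 on the slide shared with that replicate and 0.078 with the other background correction.

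Crem makes both activators and ICER, a short repressor made from an internal promoter that cAMP induces. Which of these forms each probe reads was not worked out here. Crem probe 1 differed by 0.04 (95% interval -0.30 to 0.38). Probe 2 was at -0.88, -1.02 and -0.96 in knockouts, against -1.41, -1.32 and -0.76 in wild types. Wild type replicate 3 lay above all knockouts and the other wild types below them, and the difference was 0.21 (-0.24 to 0.66). Atf1, a close relative of Creb1, was read by probe 1, which the files place at chrX:51185510-51185569, and probe 2 at chr15:100090547-100090606. The Atf1 promoter in RefSeq also lies on chromosome 15. Atf1 probe 1 was at 0.67, 0.71 and 0.66 in knockouts, against 0.69, 0.67 and 0.74 in wild types, a difference of -0.02 (-0.24 to 0.20). Its SD over the arrays, 0.029, was the lowest of the kept member probes. Probe 2 differed by -0.10 (-0.45 to 0.26). LOC100047421, which the files describe as similar to Atf1 and which is no member, differed by -0.09 (SE 0.15).

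Taking the 16 kept probes of the 8 other members as one set, 0 were called by limma at an adjusted p under 0.05, where the background over all probes was 0.00410%. At an unadjusted p under 0.05 there was 1, Crtc1. Mean levels were higher in knockouts for 10 probes and lower for 6. Knockouts lay wholly above wild types for 2, Crtc1 and Creb1 probe 2, where 3.97% of all probes did so, and wholly below them for 0, against 4.69% of all probes. Probes of 1 gene share their transcript, so these counts are not over independent genes. The median difference was 0.048 and the range -0.12 to 0.36, beside a median of -0.017 over all probes tested. The median size was 0.11, and over all probes it was also 0.11. For 15 of the 16 the 95% interval included 0, with Crtc1 the exception, and the limits of all 16 ran from -0.45 to 0.70. A p that misses the threshold does not show that a level was the same in both genotypes, and these limits are what 3 arrays against 3 allow.

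**Figure D2:**
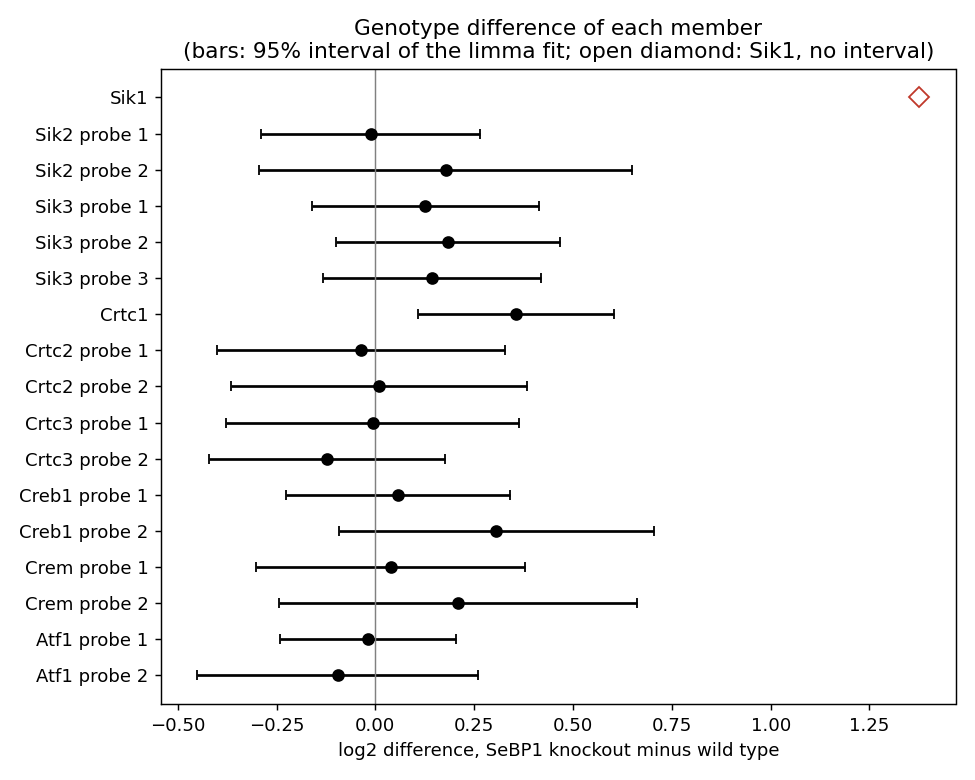
Log2 difference (SeBP1 knockout minus wild type) of the 17 kept probes of the 9 genes, with 95% intervals from limma. Sik1, by which the family was chosen, is at 1.38 and is drawn without an interval, and the 16 other probes lie between -0.12 and 0.36.

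The rest of cAMP signalling was read from 8 lists with 153 genes, of which 132 were measured above the filter. Each gene was represented by its kept probe with the highest mean. Over the lists 0 genes were called by limma, and 4 of the 132 had an unadjusted p under 0.05, Gpr6, Nr4a1, Nr4a2 and Per1, where 964 of all 24416 probes did. Mean levels were higher in knockouts for 63 genes and lower for 69, with a median difference of -0.011 against -0.017 over all genes. Knockouts lay wholly above wild types for 9 of the 132 genes, where 3.97% of all probes did so, and wholly below for 4, where 4.69% did. All 8 list medians given below changed sign when single arrays were left out. A difference of 1 or more in size was seen in 3 of the 132, while 1.27% of all probes tested had one. Nr4a1 and Lhcgr were among them, and Nr4a1 was the only listed gene that differed by as much as Sik1.

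**Figure D3:**
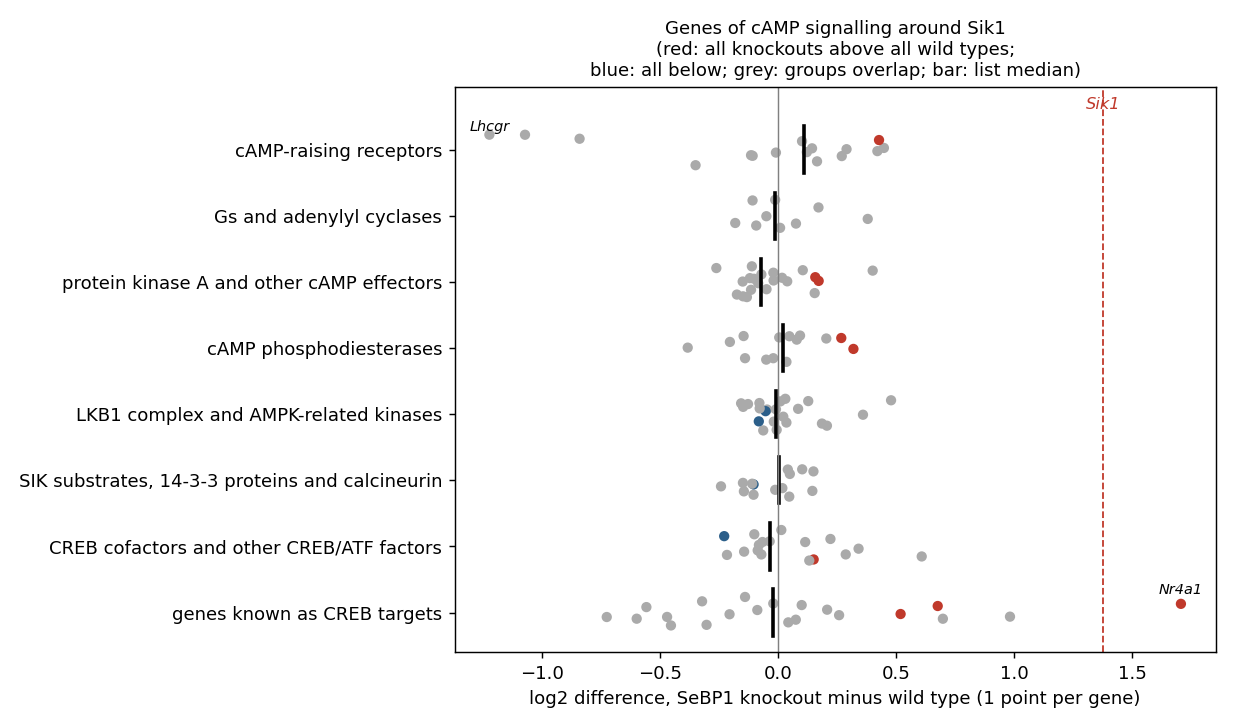
Log2 difference (SeBP1 knockout minus wild type) of the 132 measured genes in 8 lists of cAMP signalling, 1 point per gene, with the list median as a bar and Sik1 as a dashed line at 1.38. Nr4a1, at 1.71, is the only point beyond Sik1, and the list medians lie between -0.071 and 0.11.

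Receptors that raise cAMP had 16 of 20 members measured, 9 higher and 7 lower in the mean, with a median of 0.11. Gpr6, an orphan receptor that signals through Gs, was at -3.80, -4.03 and -3.86 in knockouts, against -4.37, -4.13 and -4.46 in wild types. The groups did not overlap, and the difference was 0.43 (SE 0.13, limma adjusted p = 1.00). With normexp background correction the Gpr6 difference was 0.19. The glucagon receptor Gcgr differed by 0.27 with overlapping groups. Lhcgr, the luteinising hormone receptor, was at 0.53, -2.77 and -0.05 in knockouts, against 0.21, -0.26 and 1.44 in wild types. Its difference of -1.22 (SE 0.90) came with overlapping groups and a knockout replicate 2 far below the other arrays. Lhcgr was named after its values were seen.

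Lhcgr is also 1 of the 3 corpus luteum markers, all measured, for which the log2 of the summed signal was 1.51 to 3.81 in knockouts and 2.43 to 4.13 in wild types. Of 28 markers in 8 cell type lists, 25 were well above background on all arrays, which covers granulosa cell, oocyte, theca cell, corpus luteum, macrophage and endothelial genes. Insl3 had no probe under that name, and Foxj1 and Adipoq did not pass the filter. The 2 measured oviduct and ciliated cell markers, Ovgp1 and Ccdc153, summed to -3.22 to -0.78 in knockouts and -1.39 to 4.85 in wild types. Macrophage markers summed to 2.02 to 2.81 in knockouts and 2.29 to 2.49 in wild types, and the 2 measured adipocyte markers to -0.06 to 0.84 in knockouts and 0.03 to 2.53 in wild types. The part of cell makeup in the values of Sik1 and its relatives was not tested. In whole-ovary RNA, fewer cells of a type and less RNA per cell cannot be told apart.

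Gs proteins and adenylyl cyclases, which make cAMP, had 9 of 12 members measured, 4 higher and 5 lower, with a median of -0.013 and no gene without overlap. Gnal, a Gs-like alpha subunit, differed by 0.38 (SE 0.32) and was well above background on 2 of 3 wild-type arrays. With wild type replicate 2 left out the Gnal difference was 0.031, and with wild type replicate 1 left out it was 0.65. The cyclase Adcy5 differed by -0.18 on the probe that stood for it and by -0.13 and -0.11 on the other two. Protein kinase A, its anchors and other cAMP effectors had 21 of 23 measured, 7 higher and 14 lower, with a median of -0.071. The anchoring proteins Akap8 and Akap11 had knockouts wholly above wild types, at differences of 0.17 and 0.16, but the 2 other probes of Akap11 gave -0.18 and -0.05. Phosphodiesterases, which break cAMP down, had 14 of 16 measured, 8 higher and 6 lower, with a median of 0.020. Pde4c was at 4.27, 4.64 and 4.46 in knockouts, against 4.18, 4.22 and 4.16 in wild types, and differed by 0.27 (SE 0.12). Pde10a differed by 0.32 (SE 0.17) on the probe that stood for it, where knockouts lay above wild types, and by 0.31 on the other, where they overlapped. Without knockout replicate 1 the Pde10a difference was 0.15. None of these genes was called (limma, adjusted p = 1.00 each).

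The LKB1 complex, which activates salt-inducible kinases, and the AMPK-related kinases next to them in the kinase tree had 22 of 23 members measured, 10 higher and 12 lower, with a median of -0.0077. Prkaa1, a catalytic subunit of AMPK, and Mark2, a polarity kinase, had knockouts wholly below wild types, at -0.08 and -0.05, and were named after their values were seen. Brsk1, a brain-enriched kinase of the group, differed by 0.36 (SE 0.24), and Prkag2, a regulatory subunit of AMPK, by 0.21 (SE 0.14), both with overlap. The Brsk1 difference was 0.24 without knockout replicate 1, 0.64 without knockout replicate 2 and 0.21 without knockout replicate 3. Substrates of salt-inducible kinases, 14-3-3 proteins and calcineurin had 14 of 16 measured, 7 higher and 7 lower, with a median of 0.0028. The 14-3-3 protein gene Ywhaq differed by -0.24 (SE 0.14) and the calcineurin regulatory subunit Ppp3r1 by -0.15 (SE 0.11), both with overlap. The Ywhaq difference was -0.026 with slide as a fixed block, and equally on the shared slide, and -0.45 with quantile normalization. CREB cofactors and further CREB/ATF factors had all 17 measured, 8 higher and 9 lower, with a median of -0.036. Crebl2 had knockouts below wild types on both of its probes, with differences of -0.23 and -0.44. Atf3, a stress-induced factor, differed by 0.61 (SE 0.31), with knockouts at -0.88, -2.07 and -1.35 and wild types at -1.76, -2.11 and -2.25. Knockout replicate 2 of Atf3 lay among the wild types, and the difference was 0.93 without it and 0.33 without knockout replicate 1. No gene of these 3 lists was called (limma, adjusted p = 1.00 for each named).

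Genes known as CREB targets had 21 of 28 members measured, 10 higher and 11 lower, with a median of -0.021. The orphan nuclear receptor gene Nr4a1 was at 5.19, 4.74 and 4.13 in knockouts, against 2.59, 3.31 and 3.04 in wild types. The groups did not overlap, and the difference was 1.71 (SE 0.31, limma adjusted p = 1.00). Its relative Nr4a2 was at -0.93, -0.22 and -1.27 in knockouts, against -1.44, -1.52 and -1.50 in wild types, a difference of 0.68 (SE 0.26). Nr4a2 was named after its values were seen. Per1, a clock gene that cAMP induces, was at 1.80, 1.80 and 1.62 in knockouts, against 1.39, 1.13 and 1.15 in wild types. All 3 Per1 knockouts lay above the wild types, with a difference of 0.52 (SE 0.12, limma adjusted p = 1.00). These were the 3 of 21 members without overlap, all higher in knockouts, where 3.97% of all probes were, and none of the 3 was called. The other 18 ran from -0.73 for Dusp1, a phosphatase gene, to 0.98 for Fosb, a subunit of AP-1, both with overlapping groups and both named after their values were seen.

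The profile of Sik1 over the 6 arrays was set against a pool of 19002 kept probes. The pool held only probes with a value on all 6 arrays and a RefSeq symbol that is no clone, predicted or Rik name. Other kept probes were not compared. The measure was the root mean square difference of log2 values, each centred on its own mean. A value of 0 is an identical profile, and the median over the pool was 0.74. The closest was Nnt, the mitochondrial transhydrogenase, at 0.19. C57BL/6J mice, the background given for both groups, are known to carry a deletion within Nnt. Whether the groups differ in genetic background besides Selenbp1 was not tested, for Nnt or for Sik1. Nnt was at 2.58, 2.45 and 2.28 in knockouts, against 1.21, 1.15 and 0.99 in wild types, a difference of 1.32. The next were Lilra6, a leukocyte receptor gene, at 0.29, Serpina3f, a protease inhibitor, at 0.30, Fmn1, which encodes a formin, at 0.31, and Madcam1, a vascular addressin, and Hsd17b3, a 17-beta hydroxysteroid dehydrogenase, at 0.32 each. In all 6 genes the knockouts lay above the wild types, with differences of 0.76 to 1.32, which the measure of likeness itself favours. Serpina3f was well above background on 2 of 3 wild-type arrays. None of the other members of the family was among the 6. Within the family the closest probe to Sik1 was that of Crtc1, at 0.54, then Creb1 probe 2 at 0.59. These probes also had the largest differences of the other members, 0.36 and 0.31, which the measure favours in the same way.

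**Figure D4:**
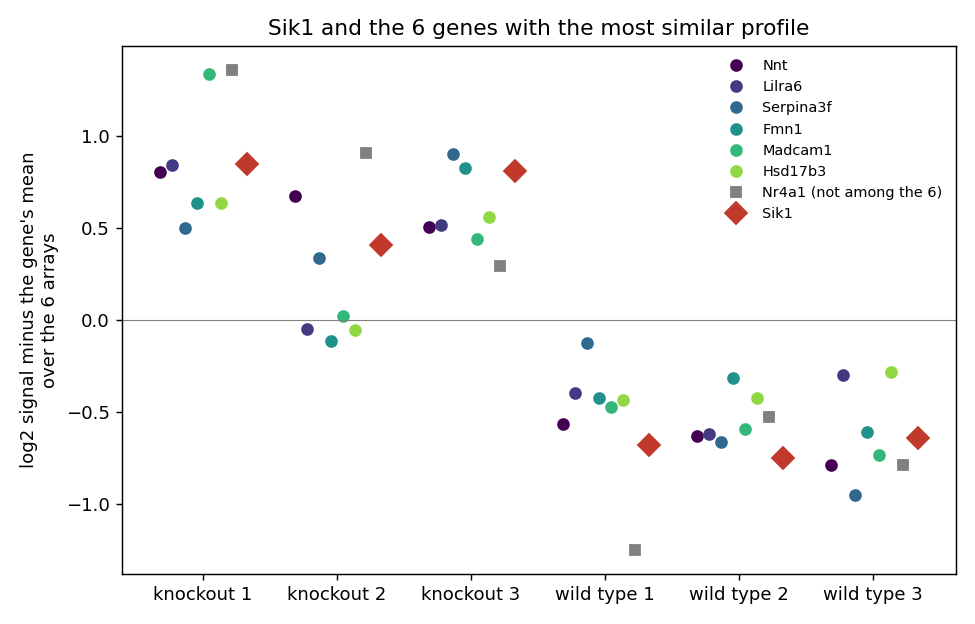
Log2 signal minus the mean over the 6 arrays for Sik1 (red diamonds), the 6 genes with the most similar profile (circles) and Nr4a1 (grey squares), with the knockout arrays left of the wild-type arrays. Nnt follows Sik1 most closely, with a root mean square difference of 0.19 and a knockout minus wild-type difference of 1.32, against 1.38 for Sik1.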

How the data were processed

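RNA of 6 ovary samples was labelled with Cy3 and measured on single-colour arrays, per the labels' protocols. The authors deposited linear spot intensity, made by Agilent Feature Extraction 10.7.1.1 and background-subtracted within each array and not normalized between arrays, per the file headers. Probe coordinates follow mm9, per the file headers. A deposited series table of intensity, whose 6 columns share a median of 119.8 with no method given in the sources used here, served as an alternative. How it was scaled or normalized is unknown.

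Besides controls, an array carried 43020 spots of 39429 probes. Outlier spots, 192 to 459 per array, were left out, spots of a probe were averaged on the log2 scale, and each array's 75th percentile (1309 to 1758.6 units) was subtracted. Probes were named by accession (26412), symbol (3854) or older symbol (735) through a RefSeq table of assembly GRCm38.p6, and 8428 kept the file's name. The genotype effect was fitted in R 4.3.3 by limma 3.58.1 (lmFit, then eBayes), with two-sided tests and Benjamini-Hochberg adjustment over the 24416 kept probes. No overlap between groups was not assessed for 235 probes missing an array. Plots were drawn with matplotlib 3.10.9, and tables were made with pandas 2.3.3 and numpy 2.4.6 under Python 3.11.15.

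Members and lists were chosen with earlier results of these data known. Named were Selenbp1, every member probe, the 2 genes of each list with the smallest unadjusted p, and the 6 genes most like Sik1. Other list genes given with values were named after those values were seen, as stated beside them. Btg2 was named only among the promoter matches. The value of 1 listed gene is not reported here. Tested on simulated data for this comparison (24416 probes), the fit called 40 of 67 probes changed by 1 on the log2 scale, 56 of 67 changed by 2 and 60 of 66 changed by 3, with 12 false calls. In the measured data, 311 of the 24416 probes differed by 1 or more in size, and 1 was called. Whether the fit finds changes of a given size as often on the 6 arrays was not tested. The 18 alternatives covered scaling, background correction, the filter, outlier spots, slide, replicate number, array weights and each array left out. The small number of arrays limits precision.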

Additional observations from a re-analysis of the deposited data

How the results depend on the processing

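In the alternatives that kept more than 1 wild type, 0 of the other members' probes and 0 listed genes were called (limma). The lowest limma adjusted p of a member there was 0.275. Except without wild type replicate 3, at most 1 probe was called over the whole array, so these counts say little of the family. Sik1 had the largest difference of the family in size in all 18. The family was chosen by that difference in the same arrays, so this is a description. The Sik1 difference ran from 1.08, with normexp background correction, to 1.52, and from 1.30 to 1.52 with an array left out. Of all probes, 1 was called in the main analysis. None (0) was called with no filter, with slide as a fixed block, on the shared slide alone or with the replicate block, and 0 to 38 with an array left out, 38 without wild type replicate 3 and 0 without any one of the other 5 arrays. The replicate numbers used here are not all those of the sample titles, so samples of the same number are not pairs by title. Correlations of deviations between such samples were -0.331, 0.299 and -0.0267. With so few arrays they cannot show whether samples were paired. Probes at an unadjusted p under 0.05, 964 in the main analysis, were 1805 with no filter, 2389 with slide as a fixed block, 1825 on the shared slide, and 2454 with array weights. Leaving out knockout replicate 2 gave 1509 such probes, leaving out wild type replicate 2 gave 624, and leaving out wild type replicate 3 gave 2015. Of the 16 probes of other members, 12 changed sign in some alternative, at sizes up to 0.21, and the cause was not tested. With slide as a fixed block, and equally on the shared slide, Sik2 probe 1 was 0.056, Sik3 probe 1 -0.061, Crtc2 probe 1 0.21, the Crtc3 probes 0.12 and 0.012, Creb1 probe 1 -0.037, the Crem probes -0.092 and -0.19 and Adcy5 0.0043. With slide as a random block, Sik2 probe 1 was 0.0038, Crtc2 probe 1 0.017 and Crtc3 probe 1 0.022. Crtc2 probe 2 was -0.0031 with median scaling, -0.0024 with quantile normalization and -0.081 with array weights, where Atf1 probe 2 was 0.019. Slide as a fixed block moved Crtc2 probe 2 to 0.31. Sik2 probe 2 was -0.0040 with normexp, and with the deposited series table Crtc3 probe 1 was 0.027 and Atf1 probe 1 0.0095. With an array left out, Sik2 probe 1 ran from -0.074 to 0.051, Crtc2 probe 1 from -0.16 to 0.047, Crtc2 probe 2 from -0.14 to 0.12, Crtc3 probe 1 from -0.12 to 0.11, Crem probe 1 from -0.080 to 0.11 and Atf1 probe 2 from -0.22 to 0.019. Of the other named genes, none called, Adcy5 then ran from -0.27 (without wild type replicate 3) to -0.042 (without wild type replicate 1), Prkag2 from 0.11 (without knockout replicate 2) to 0.34 (without knockout replicate 1), Ppp3r1 from -0.21 to -0.097 and Crebl2 from -0.29 to -0.13. The median of the cAMP-raising receptors ran from -0.12 to 0.18 and that of the CREB targets from -0.13 to 0.053. On the shared slide the knockouts are set against a single wild type, so slide and the spread of wild types there cannot be told apart.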
